A study of Mus musculus with 6 samples.

Results

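Autophagy and lysosome genes were examined in C2C12 cells, an immortalized mouse myoblast line, on day 6 of differentiation into myotubes and while proliferating. The genes were listed by function: 47 symbols were listed, and 46 of them have at least 1 probe set annotated to that gene alone, out of 18193 genes that have such a probe set on the array. The listed gene without one is Bnip3l, whose probe sets are shared with a pseudogene. Differentiated cells were kept in 2% horse serum and harvested on day 6, and proliferating cells were kept in 20% fetal calf serum. Of each, 3 RNA samples were hybridized, each to its own Affymetrix mouse array. Differentiation, the change of serum and the time in it came together, so their effects cannot be told apart. Each RNA sample was a combination of 3 pools of 3 culture plates, so the spread between arrays is that between pooled samples of 1 cell line, and p-values measure no more than that. The study describes differentiated C2C12 cultures as myotubes together with mononucleated cells that have not differentiated, and in RNA of such cultures a change in the share of a cell type and a change in RNA per cell cannot be told apart.

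In autophagy, a kinase complex with ULK1 and a lipid kinase complex with Beclin 1 start a cup-shaped membrane, the phagophore. A pair of ubiquitin-like conjugation systems then attaches ATG8 proteins (LC3 and GABARAP) to it, and receptors that bind both ATG8 proteins and cargo fill it before it fuses with a lysosome. The lysosome is acidified by the V-ATPase, a rotary proton pump, and degrades its content with cathepsins and glycosidases. In skeletal muscle the pathway is known for the turnover of organelles and for glycogen breakdown, and the factors TFEB, FOXO1 and FOXO3 are known to activate many of its genes.

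The values are MAS 5.0 signals, a linear measure of brightness for each probe set after scaling of the array. Array medians lay between 72.3 and 81.4 in differentiated cells and between 68.0 and 73.0 in proliferating cells. Changes are given as log2 fold changes of the signal plus 15, fitted with limma over 45037 probe sets, and probe sets whose p stayed under 0.05 after Benjamini-Hochberg adjustment are called. Each gene is represented by its brightest probe set unless stated otherwise. Probes for transcripts of a bacterium served as a measure of background: the brightest of 27 such probe sets lay between 51.9 and 87.0 on the 6 arrays. The labels held against marker genes: all 7 myotube markers were called higher, among them Myog at 5.20 and Mymk at 5.64, and the proliferation markers Mki67 and Top2a were called lower. Myod1, Myf5 and Des, also listed for myoblasts, were at 0.28, -0.10 and 0.82, of which Des passed. None of the 4 adipocyte markers measured was above background on every array of a group, with summed signals of 107 to 199 in differentiated cells and 25.3 to 120.0 in proliferating cells. Of 5 fibroblast markers, Dcn (5.18), Pdgfra (1.24) and Col3a1 (0.57) were called higher. Col1a1 (0.24, adjusted p = 0.20) and Thy1 (-1.02, adjusted p = 0.16, at background on all 6 arrays) did not pass. The fibroblast sums, set mostly by Col3a1 and Col1a1, were 30775 to 34127 in differentiated cells and 20905 to 22271 in proliferating cells. Of 8 macrophage markers, Adgre1 (0.87) and Fcgr1 (at least 1.48-fold, from the background level) were called higher, Ptprc, Itgam and Lyz2 were not above background on every array of either group, and the sums were 992 to 1109 in differentiated cells and 760 to 950 in proliferating cells. The part of other cell types in the results below was not tested.

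Many transcripts of the autophagy machinery and of the lysosome were higher in differentiated cells, and few were lower. Of the 46 genes, 19 were called higher, 2 lower and 25 did not pass. That is 41.3% higher and 4.35% lower, where among all 18193 genes 8.63% were called higher and 9.00% lower. The genes were chosen with earlier results of these data known, so the shares describe this list and are no independent support. Among the 11216 genes that were above background on every array of at least 1 group, as 45 of the 46 were, 13.7% were called higher and 14.4% lower. The signals of the groups did not overlap in 28 of the 46 genes, and in 33.4% of all genes. The median log2 fold change of the 46 genes was 0.33, against 0.06 for all genes. Of 19 genes of the autophagy machinery, 10 were called higher and 0 lower, with a median of 0.40. By an unadjusted p under 0.05, 13 of these 19 would pass, Atg5 and Atg7 with values below 0. The share of all genes at that threshold was not taken, so this count has no share to be read against. Of 24 lysosomal genes, 8 were called higher and 2 lower, with a median of 0.24. The difference between the machinery and the lysosomal genes was not tested. The largest change was the rise of Map1lc3a, and the largest fall that of Gla, as the plot of changes by role shows.

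**Figure D1:**
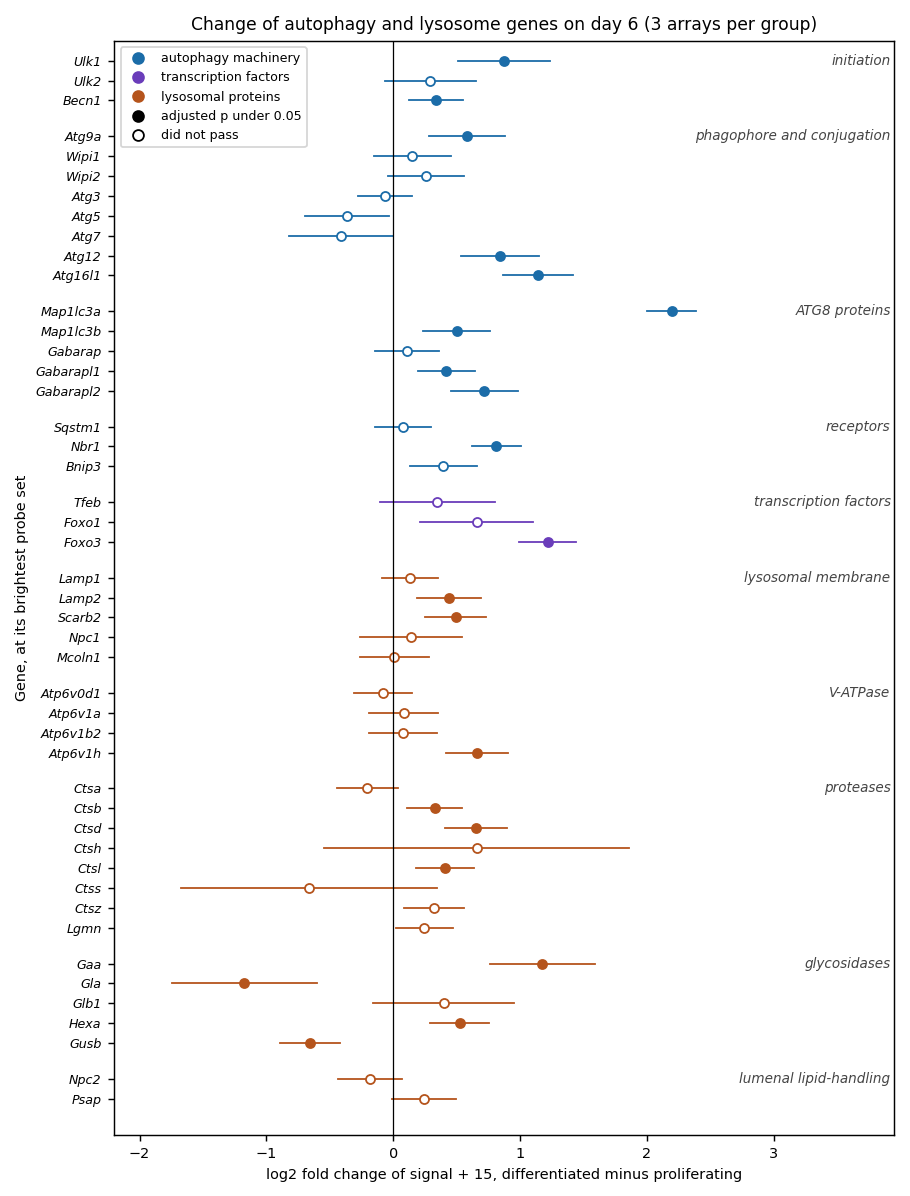
Log2 fold change (horizontal axis; the 3 differentiated arrays over the 3 proliferating ones) of 46 autophagy and lysosome genes (vertical axis, ordered by role), with 95% confidence intervals as lines; filled circles have an adjusted p under 0.05. Map1lc3a stands at 2.19, far to the right of the other genes, Gla and Gusb are the 2 filled circles left of 0, and the wide intervals are those of the dim genes Ctsh and Ctss.

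Among the initiation genes, Ulk1 rose most. Ulk1 encodes the kinase that starts autophagy when nutrients or energy run short. Its signals were 661, 732 and 525 on the differentiated arrays, against 304, 420.5 and 305 on the proliferating arrays. All 3 differentiated arrays were above all 3 proliferating ones, and the log2 fold change was 0.87 (standard error, SE, 0.17, adjusted p = 0.0031). The other, dimmer probe set of Ulk1 was at 0.56 with overlapping groups and did not pass (adjusted p = 0.44). The related kinase Ulk2 was at 0.29 (95% confidence interval -0.06 to 0.65, adjusted p = 0.34). Becn1, the Beclin 1 subunit of the lipid kinase complex, was called with a small change of 0.33 (SE 0.10, adjusted p = 0.041), and a second of its 5 probe sets rose by 0.56 (SE 0.10, adjusted p = 0.002). The others, all dimmer, were at 0.41, 0.14 and 0.10 and did not pass (adjusted p = 0.57, 0.82 and 0.83). The call at the brightest probe set of Becn1 ended without any single array, at 0.29, 0.34 and 0.37 without differentiated replicate 1, 2 or 3 and at 0.32, 0.31 and 0.37 without proliferating replicate 1, 2 or 3.

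Of 8 genes of the phagophore membrane and of the conjugation systems, Atg16l1, Atg12 and Atg9a rose and 5 did not pass. Atg16l1, which directs the conjugation of ATG8 proteins to the phagophore, had signals of 916, 921 and 757 in differentiated cells and of 349.8, 396 and 404 in proliferating cells. The groups lay far apart, with a log2 fold change of 1.14 (SE 0.13, adjusted p = 4.1e-05). The other, much dimmer probe set of Atg16l1 was at 0.41 with overlapping groups and did not pass (adjusted p = 0.67). Atg12, the ubiquitin-like protein that joins ATG5, had signals of 703, 694 and 575 in differentiated cells, against 311, 408 and 362 in proliferating cells. Its rise was of 0.84 (SE 0.14, adjusted p = 0.0012) at the brightest of 3 probe sets. Another, above background on every array, was at 0.25 and did not pass (adjusted p = 0.40), and the last was at background on all arrays. With all 3 averaged the change was 0.35 (adjusted p = 0.30), which ends the call. Atg9a, the membrane protein of the vesicles that seed the phagophore, rose by 0.58 (SE 0.14, adjusted p = 0.014). That call was lost without differentiated replicate 1 (0.50), differentiated replicate 2 (0.56) or proliferating replicate 1 (0.51).

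The other conjugation genes did not pass. ATG5, the partner to which ATG12 is joined, ATG7, the E1-like enzyme of both systems, and ATG3, the E2-like enzyme for ATG8 proteins, act in the same reactions. Atg5 was at -0.37 (95% confidence interval -0.70 to -0.04, adjusted p = 0.16), Atg7 at -0.41 (-0.82 to -0.01, adjusted p = 0.21) and Atg3 at -0.07 (-0.28 to 0.14, adjusted p = 0.78). The sign of Atg5 turned with the probe set, its others being at 0.12 and -0.32, neither of which passed. The signals of Atg7 did not overlap, at 214, 159 and 188 in differentiated cells and 243, 261 and 253 in proliferating cells, but its change did not pass. Wipi1 and Wipi2, which bind the phosphoinositide of the phagophore, were at 0.15 and 0.26 (adjusted p = 0.61 and 0.30), and another probe set of Wipi2 had the opposite sign, at -0.33 (adjusted p = 0.22). The difference between the genes that passed and those that did not was not tested.

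Of the 5 ATG8 genes, 4 rose. Map1lc3a, for LC3A, had signals of 12328, 12960.0 and 12695 on the differentiated arrays, against 2741, 2728 and 2795 on the proliferating arrays. Each group was tight, and the mean signal was 4.60-fold higher in differentiated cells, with a log2 fold change of 2.19 (SE 0.09, adjusted p = 5.8e-09). At its other probe set the signals were 5873, 6842 and 7511 in differentiated cells and 754, 768 and 786 in proliferating cells, a log2 fold change of 3.10 (SE 0.10, adjusted p = 1.1e-09). Both probe sets of Map1lc3a therefore passed in the same direction, with sizes that differ by 0.91 on the log2 scale.

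Map1lc3b, for LC3B, the form most used as a marker of autophagosomes, rose at 3 of 4 probe sets. At the brightest the signals were 3885, 3554 and 3924 in differentiated cells, against 2262, 3192 and 2650.0 in proliferating cells, a change of 0.50 (SE 0.12, adjusted p = 0.015). There the call ended without differentiated replicate 1 or 3 (0.48 and 0.47) or proliferating replicate 1 or 3 (0.38 and 0.49). The other passing probe sets were at 1.07 and 1.11 (SE 0.10 and 0.09, adjusted p = 7.6e-06 and 2.5e-06), and the last was under background on all 6 arrays. Gabarapl2, also called GATE-16, had signals of 2178, 1970.1 and 2373 in differentiated cells and of 1394, 1469 and 1102 in proliferating cells. The groups did not overlap, and the log2 fold change was 0.72 (SE 0.12, adjusted p = 0.0012). The other, much dimmer probe set of Gabarapl2 was at 0.39 with overlapping groups and did not pass (adjusted p = 0.52). Gabarapl1 rose by 0.42 (SE 0.10, adjusted p = 0.017), which did not hold without differentiated replicate 1 or 2 (0.44 and 0.37) or proliferating replicate 1 or 3 (0.42 and 0.34), and its other probe set was at 0.45 (adjusted p = 0.023). Gabarap itself was at 0.11 (95% confidence interval -0.14 to 0.36, adjusted p = 0.67), with overlapping groups.

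**Figure D2:**
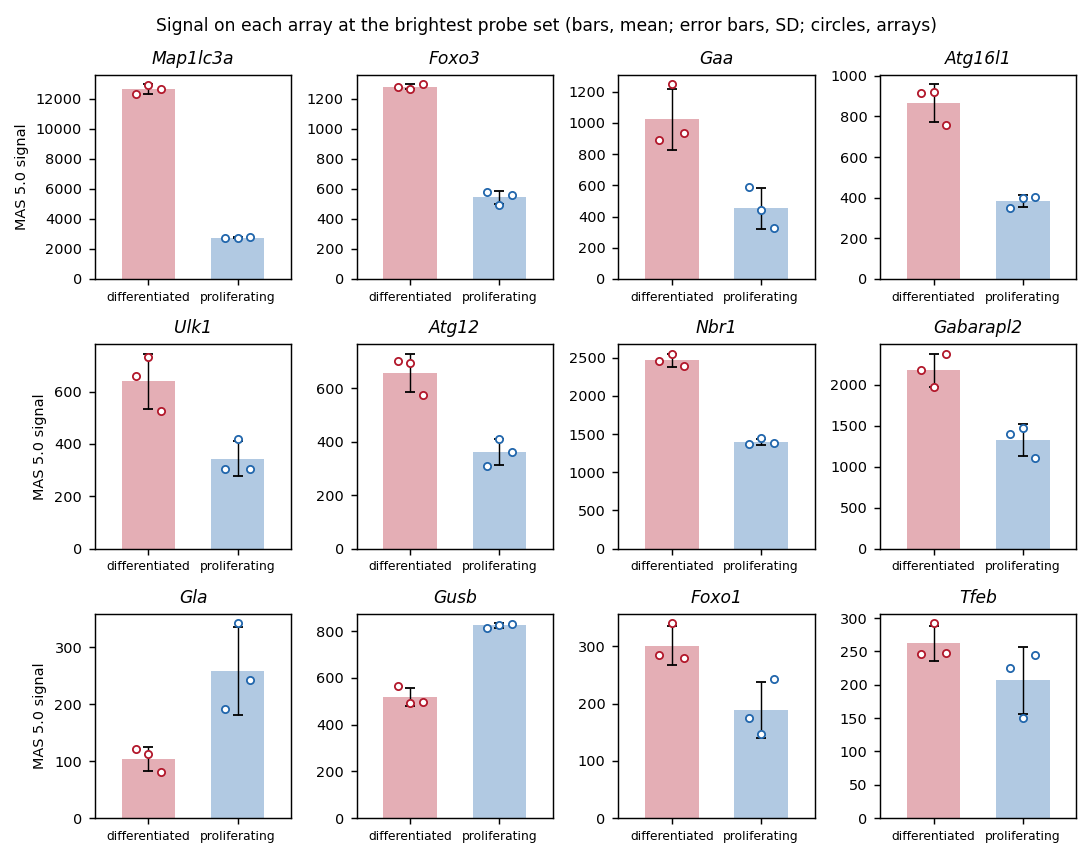
MAS 5.0 signal (vertical axis, linear, a scale for each gene) on each array at the brightest probe set of 12 genes: the 8 genes with the largest rises, the 2 that fell, and the transcription factors Foxo1 and Tfeb, which did not pass. Bars are means of 3 arrays, error bars SD and circles the arrays; in every panel the circles of the 2 groups are separate, and for Tfeb the gap is the narrowest, 246 against 244.

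Of the receptors that bring cargo to the phagophore, Nbr1 rose and the others did not pass. NBR1 binds ubiquitinated cargo and is known to bind titin in the sarcomere. Nbr1 had signals of 2461, 2551 and 2388 in differentiated cells, against 1371, 1445 and 1376 in proliferating cells. The log2 fold change was 0.81 (SE 0.09, adjusted p = 3.4e-05), and its second probe set rose by 0.46 (adjusted p = 0.0093). Sqstm1, for the related receptor p62, was at 0.08 (95% confidence interval -0.14 to 0.29, adjusted p = 0.75), with signals of 9768, 9354 and 9384 in differentiated cells and 8612, 9749 and 8735 in proliferating cells, which overlap. Bnip3, a receptor for mitochondria, was at 0.40 (SE 0.12, adjusted p = 0.054). Its groups did not overlap, and it passed without proliferating replicate 1 (0.50), after quantile normalization (0.43), and at 0.40 both when dim probe sets were removed and in the regularized test.

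Among the 3 transcription factors, Foxo3 rose. FOXO3 is a forkhead factor that, in mouse muscle, activates autophagy genes during atrophy. Foxo3 had signals of 1279, 1266 and 1296 in differentiated cells, against 578, 494 and 559 in proliferating cells. This is a change on the log2 scale of 1.22 (SE 0.10, adjusted p = 4.8e-06), and a second probe set was at 0.98 (SE 0.18, adjusted p = 0.0023). Foxo1, the related factor, had signals of 284, 340.5 and 279 in differentiated cells and of 175, 148 and 242 in proliferating cells. It was at 0.66 (SE 0.21, adjusted p = 0.057) at the brightest probe set and at 0.69 (SE 0.20, adjusted p = 0.044) at another, so its call depends on the probe set, and at the brightest it passed without proliferating replicate 3 (0.84), when dim probe sets were removed (adjusted p = 0.034) and in the regularized test (adjusted p = 0.026). Tfeb, for the factor that binds the promoters of lysosomal genes, had signals of 246, 292 and 248 in differentiated cells, against 225, 150.2 and 244 in proliferating cells. Its change of 0.35 did not pass (95% confidence interval -0.11 to 0.80, adjusted p = 0.38).

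Of 5 lysosomal membrane genes, Lamp2 and Scarb2 rose, both by less than 1.5-fold at the brightest probe set. Lamp2, of which 1 isoform is the receptor of chaperone-mediated autophagy and whose loss causes a human muscle disease, had signals of 6053, 4969 and 5492 in differentiated cells and of 4229, 3506 and 4480.4 in proliferating cells. It rose at all 4 of its probe sets, by 0.44 (SE 0.12, adjusted p = 0.025) at the brightest and by 0.32 to 0.65 over all 4. At the brightest, the call was lost without differentiated replicate 1 or 3 (0.37 and 0.44) or proliferating replicate 1 or 2 (0.47 and 0.33). Scarb2, the membrane protein LIMP-2 that carries glucocerebrosidase to lysosomes, rose by 0.49 (SE 0.11, adjusted p = 0.0094), and not without differentiated replicate 2 (0.42). Its other probe set was at 0.27 with overlapping groups and did not pass (adjusted p = 0.18). Lamp1 was at 0.13, the cholesterol transporter gene Npc1 at 0.14 and the calcium channel gene Mcoln1 at 0.01 (adjusted p = 0.52, 0.75 and 0.99). With 95% confidence intervals of -0.09 to 0.35, -0.27 to 0.54 and -0.27 to 0.28, a change of 1.5-fold in these 3 genes lies outside the interval in either direction.

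Of 4 V-ATPase genes, only Atp6v1h was called at its brightest probe set. Atp6v1h, for a regulatory subunit of the cytosolic part of the pump, had signals of 1062, 1125 and 1190.3 in differentiated cells, against 628, 709.8 and 795 in proliferating cells. The groups did not overlap, at a change of 0.66 (SE 0.11, adjusted p = 0.0015), which fell to 0.22 and did not pass when its 3 probe sets were averaged. Atp6v1a and Atp6v1b2, for the catalytic subunit and its partner in the ring that splits ATP, were at 0.08 and 0.07 (adjusted p = 0.78 and 0.80). Another probe set of Atp6v1a rose by 0.46 (SE 0.11, adjusted p = 0.015). Atp6v0d1, of the membrane part, was at -0.08 (adjusted p = 0.74).

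Among 8 proteases, the cathepsin genes Ctsd, Ctsl and Ctsb rose, by modest amounts at the brightest probe sets. Ctsd, for the main aspartic protease of lysosomes, had signals of 9834, 8366 and 7851 in differentiated cells, against 5949.9, 5598 and 4984 in proliferating cells. This was a change of 0.65 (SE 0.11, adjusted p = 0.0017). Ctsl, for the cysteine protease cathepsin L, rose by 0.41 (SE 0.11, adjusted p = 0.021). The call ended without differentiated replicate 1, 2 or 3 (0.42, 0.44 and 0.36) and without proliferating replicate 1 or 3 (0.37 and 0.39). It also ended with the 2 probe sets of Ctsl averaged (0.19), of which the dimmer was at background on all 6 arrays.

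Ctsb, for cathepsin B, had probe sets with changes of unlike size. At the brightest, the signals were 13011, 13205 and 12516 in differentiated cells, against 10180.2, 10225 and 10457 in proliferating cells, a change of 0.33 (SE 0.10, adjusted p = 0.0499). That value is at the edge of the threshold, and the call ended without any single array, with values of 0.32, 0.31 and 0.35 without differentiated replicate 1, 2 or 3 and of 0.32, 0.32 and 0.34 without proliferating replicate 1, 2 or 3. A pair of other probe sets rose by 1.39 and 1.41 (SE 0.12 and 0.13, adjusted p = 6.5e-06 and 1.2e-05). At the first of these the signals were 1206, 1226 and 971 in differentiated cells and 436, 389 and 442 in proliferating cells, so the groups lie far apart. A further probe set was at 0.38 (adjusted p = 0.041), and the fifth, dim on all 6 arrays, was at 0.03.

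The other proteases did not pass. Ctsz was at 0.32 (adjusted p = 0.084), Lgmn, for the asparaginyl endopeptidase legumain, at 0.24 (adjusted p = 0.17), and Ctsa, for a carboxypeptidase that also protects galactosidase and neuraminidase, at -0.20 (adjusted p = 0.32). Ctsz passed without differentiated replicate 2 (0.42), after quantile normalization (0.39), and, at the edge, when dim probe sets were removed (0.32). Ctsh was dim, at 61.3, 90.3 and 89.1 in differentiated cells and 10.4, 100.1 and 58.1 in proliferating cells, which allows no statement on direction (0.66, 95% confidence interval -0.55 to 1.86). Ctss, for a cathepsin known mainly from antigen-presenting cells, was at background on all 3 differentiated arrays and on 2 of 3 proliferating arrays. Its value of -0.66, which is drawn in the plot by role and enters the medians, allows no statement on direction.

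The glycosidase genes went in both directions. Gaa, for the acid alpha-glucosidase that degrades glycogen in lysosomes and is missing in Pompe disease, had signals of 888, 1247 and 935 in differentiated cells, against 588.5, 443 and 325 in proliferating cells. All differentiated arrays were above all proliferating ones, and the log2 fold change was 1.18 (SE 0.19, adjusted p = 0.0010), with 0.99 (SE 0.14, adjusted p = 0.00042) at a second probe set. Hexa, for the alpha subunit of beta-hexosaminidase, rose by 0.52 (SE 0.11, adjusted p = 0.0049), and Glb1, for beta-galactosidase, was at 0.40 (adjusted p = 0.42), with 1 proliferating array at 541 and the others at 251 and 236. Without that array, proliferating replicate 2, Glb1 passed at 0.76.

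Gla and Gusb fell, and were the only genes of the 46 called lower at the brightest probe set. Gla, for alpha-galactosidase A, had signals of 121, 112 and 80.8 in differentiated cells, against 191, 342 and 242 in proliferating cells. The change was -1.17 (SE 0.26, adjusted p = 0.0095), and it did not pass without proliferating replicate 2 (-0.96) or with all 3 probe sets averaged (-0.47), the other 2 being dim. Gusb, for beta-glucuronidase, which is often used as a reference transcript, had signals of 563, 491 and 499 in differentiated cells and of 814.5, 825.5 and 832 in proliferating cells. These groups lie far apart at -0.66 (SE 0.11, adjusted p = 0.0012), and the second probe set fell by 1.18 on the log2 scale (SE 0.18, adjusted p = 0.00072).

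Npc2 and Psap, for a cholesterol carrier and for the precursor of the saposins of the lysosomal lumen, were at -0.18 and 0.24 (adjusted p = 0.41 and 0.24), with overlapping groups. Psap passed without differentiated replicate 3 (0.36) and after quantile normalization (0.40). A second probe set of Npc2 fell by 0.59 on the log2 scale (SE 0.10, adjusted p = 0.0013), with signals of 4735, 4409 and 4502 in differentiated cells and of 6793, 7498 and 6276 in proliferating cells. Of its other probe sets, 1 was at 0.24 and did not pass, and the last was at background on all 6 arrays.

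Agreement between probe sets could be read for most genes, since 34 of the 46 have several. Of 112 probe sets in total, 35 were called higher and 4 lower, 34.8% against 12.6% of all probe sets of the array called in either direction. Of the 112, 11 were at background on all 6 arrays. The 12.6% includes the dim probe sets of the array. In a fit without probe sets at background on all 6 arrays, 6419 of the 33341 left were called. By any probe set, 21 genes had a rise, 3 a fall and 22 no call, and in 0 genes did probe sets pass in opposite directions. The share of all genes called by any of their probe sets was not taken, so these counts have no share to be read against. Foxo1 and Atp6v1a were called higher, and Npc2 lower, only at a probe set that is not the brightest. The plot of probe sets shows that the brightest probe set had the smaller change in Map1lc3a, Map1lc3b, Ctsb and Gusb, and the larger one in Nbr1, Foxo3 and Gaa.

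**Figure D3:**
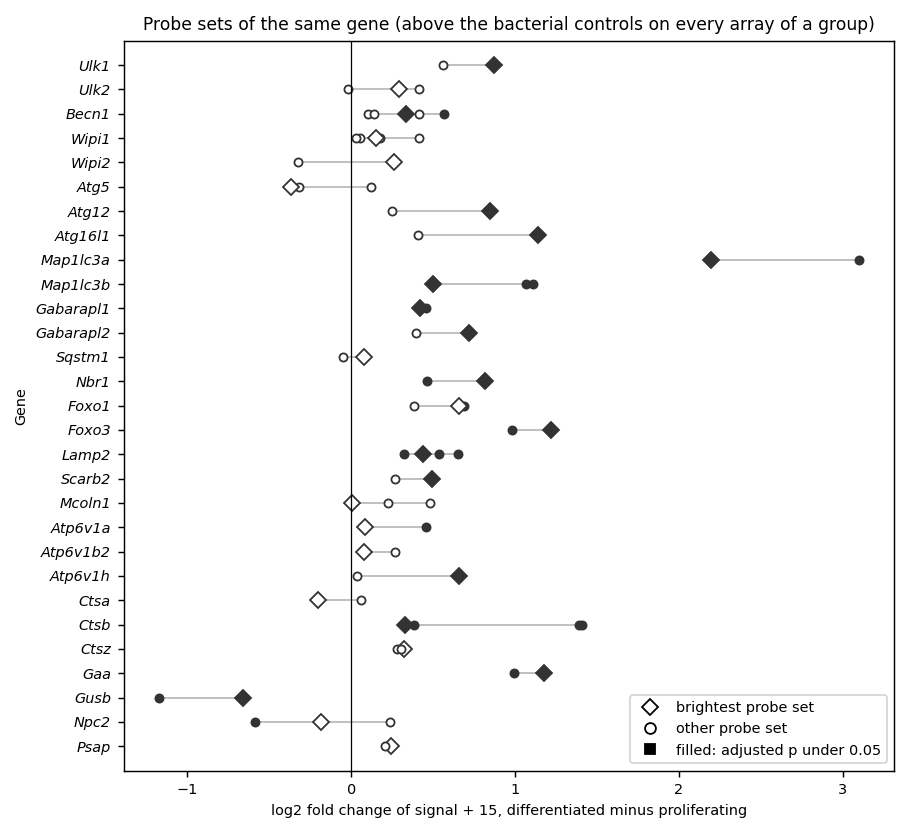
Log2 fold change (horizontal axis, differentiated over proliferating) of 75 probe sets of the 29 genes (vertical axis) that have 2 or more above background on every array of a group. Diamonds are the brightest probe set of a gene and circles the others, and filled symbols have an adjusted p under 0.05; Ctsb spreads from 0.33 to 1.41 and Map1lc3a from 2.19 to 3.10.

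Promoter sequence was also examined. It was not used to list the genes, but the E-box and its longer form were searched because TFEB is known to bind promoters of lysosomal genes. Their share among lysosomal genes is therefore a description and no independent support. The windows reach from 250 bases before to 50 bases after the annotated gene start (RefSeq, build GRCm38.p6) and exist for 37 of the 46 genes. Without a window are Map1lc3a, Atg16l1, Atg12, Becn1, Atp6v1h and Ctsb, which were all called higher, and Npc1, Atp6v1b2 and Ctsh, which did not pass. The E-box CACGTG, a palindrome that reads the same on both strands, was present in 15 of the 37 genes (40.5%), against 8.09% of all 27025 genes with a window. By class it was present in 11 of 19 lysosomal genes (57.9%), 4 of 15 machinery genes (26.7%) and 0 of 3 transcription factors. The longer palindrome TCACGTGA, which holds the E-box and is of the kind TFEB is known to bind, was present in 7 of the 37 (18.9%), against 1.12% of all genes, and 6 of the 7 are lysosomal. The FoxO motif GTAAACA, searched on both strands, was present in 0 of the 37 windows and in 4.05% of all genes, which says only that these letters are not in these windows. The 30 bases around each TCACGTGA are shown because they are what these 7 genes have in common beyond their function, with the motif in capitals and the strand of the gene.
Atg3, chr16:45158746-45158775, plus strand: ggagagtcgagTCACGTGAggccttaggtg
Atp6v0d1, chr8:105566050-105566079, minus strand: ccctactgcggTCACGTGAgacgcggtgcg
Atp6v1a, chr16:44139373-44139402, minus strand: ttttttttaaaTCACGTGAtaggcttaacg
Ctsa, chr2:164833749-164833778, plus strand: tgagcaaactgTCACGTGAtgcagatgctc
Ctsa, second match, chr2:164833766-164833795, plus strand: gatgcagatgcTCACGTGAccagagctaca
Ctsd, chr7:142387908-142387937, minus strand: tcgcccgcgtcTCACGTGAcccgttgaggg
Gla, chrX:134601182-134601211, minus strand: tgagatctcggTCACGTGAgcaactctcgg
Gla, second match, chrX:134601215-134601244, minus strand: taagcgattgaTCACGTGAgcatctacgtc
Mcoln1, chr8:3500462-3500491, plus strand: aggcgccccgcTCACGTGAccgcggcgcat

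The changes of the genes with and without these motifs are given side by side, and the difference between them was not tested. Genes that have no window are in neither group, among them Map1lc3a, which had the largest rise. Of the 7 genes with TCACGTGA, Ctsd was called higher, Gla lower, and Atg3, Atp6v0d1, Atp6v1a, Ctsa and Mcoln1 did not pass at the brightest probe set, with a median log2 fold change of -0.07. Of the 30 genes with a window and without it, 12 were called higher and 1 lower, with a median of 0.37. For the E-box, 3 of 15 genes with it were called higher, namely Ctsd, Ctsl and Gaa, and 1 lower, with a median of 0.08, and 10 of 22 genes without it were called higher and 1 lower, with a median of 0.38. With 8.63% of all genes called higher and 9.00% lower, and 13.7% and 14.4% of those above background, counts of 1 and 3 genes with a motif are too small to read against these shares. Lamp1 has 4 E-boxes in its window and did not pass. A match is a description of the sequence, and whether a factor binds there was not measured.

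Further genes of the pathway were taken from lists named by function, which were also chosen with earlier results of these data known. Of 31 other autophagy genes measured, 10 (32.3%) were called higher and 1 (3.23%) lower, with a median of 0.42. For comparison with this and the next lists, 8.63% of all genes were called higher and 9.00% lower. Among genes above background these shares were 13.7% and 14.4%. The largest rises among them were Calcoco1 at 1.46 (adjusted p = 2.9e-06), Pik3r4, the regulatory subunit of the lipid kinase complex, at 0.82 (adjusted p = 0.014), and Atg13, a subunit of the ULK1 complex, at 0.81 (adjusted p = 0.0014). The 1 that fell was Atg4b, the protease that trims ATG8 proteins, at -0.46 (adjusted p = 0.024). Of 47 other lysosomal genes, 18 (38.3%) were called higher and 1 (2.13%) lower, with a median of 0.33. Ctsf, for cathepsin F, was at background on all 3 proliferating arrays and was at least 1.43-fold higher in differentiated cells, set against the background level (adjusted p = 0.017). Sort1, a sorting receptor, was at 1.43 (adjusted p = 0.033), with 1 of 3 proliferating arrays above background, and Neu1, for neuraminidase, at 1.34 (adjusted p = 0.00013). Man2b1, for the lysosomal alpha-mannosidase, fell by 1.08 on the log2 scale (adjusted p = 0.00079). Of 12 other V-ATPase subunits and accessory proteins in that list, 5 (41.7%) were called higher and 0 lower, Atp6v1e1 most, at 1.28 (adjusted p = 5.8e-05).

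Upstream of autophagy, 5 of 28 regulators (17.9%) were called higher and 1 (3.57%) lower, with a median of 0.29. The share called higher is near the 13.7% of all genes above background. Sesn1, a sestrin that restrains mTORC1, rose by 1.28 (adjusted p = 9.3e-06), Foxo4, another forkhead factor, by 0.87 (adjusted p = 0.018), and Rptor, the substrate-binding subunit of mTORC1, by 0.76 (adjusted p = 0.0021). Tfe3, a factor of the TFEB family, fell by 0.46 on the log2 scale (adjusted p = 0.014). These lists share the same 6 arrays with the 46 genes, so they are no independent measurement.

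**Figure D4:**
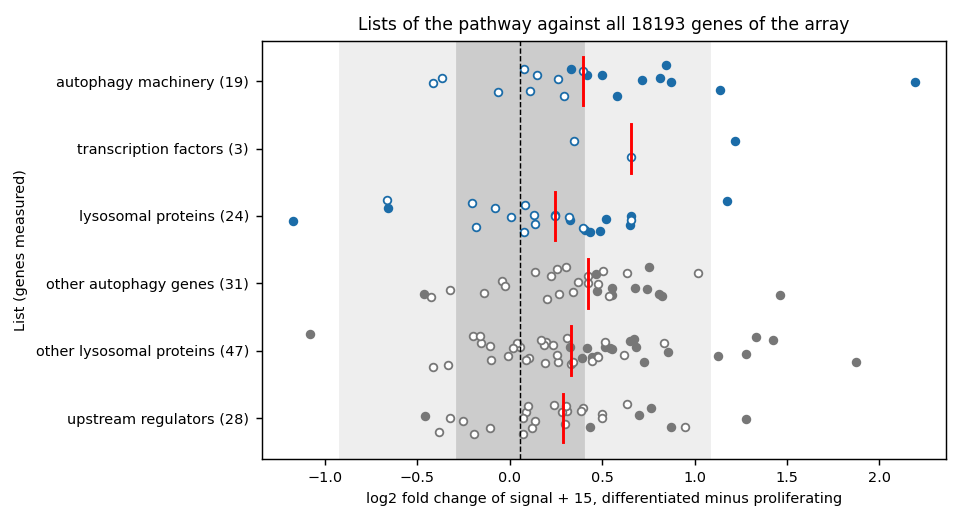
Log2 fold change (horizontal axis, differentiated over proliferating) of each measured gene in 6 lists (vertical axis, with the number of genes); filled circles have an adjusted p under 0.05 and red bars are medians. The dark band holds the middle of all 18193 genes (25th to 75th percentile, -0.29 to 0.40), the light band the 5th to 95th percentile (-0.92 to 1.08) and the dashed line their median of 0.06; all 6 medians lie to its right.

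Of the 21 calls, 12 held without any single array and 12 reached a change of 1.5-fold. The matching shares among all calls of the array were not taken. With 3 arrays against 3, the smallest p of an exact permutation test is 0.1, and the calls rest on the variance that limma shares between probe sets. When that variance was not allowed to depend on brightness (eBayes without trend), 17 of the 21 calls were lost, and Atg16l1, Map1lc3a, Nbr1 and Foxo3 kept theirs.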

How the data were processed

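RNA of C2C12 cells was measured on 6 Affymetrix mouse genome arrays. The deposited intensity values are MAS 5.0 signals, per the labels and the study's methods, which also name GCRMA and a Bayesian regularized test, applied after these values were made. GCRMA needs probe-level data, which were not used here. Of 45101 probe sets, 64 controls were left out. Log2(signal + 15) was tested by limma 3.58.1 (R 4.3.3), by lmFit and eBayes with a trend. Positive changes mean higher in differentiated cells, tests were 2-sided, and Benjamini-Hochberg adjustment ran over 45037 probe sets. Every adjusted p is limma's unless the regularized test is named. The platform annotation gives 34945 of these probe sets 1 gene, 932 several and 9160 none. Signal over background and 3 arrays per group limit the precision.

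The members, lists and markers were chosen with earlier results of these data known. Array values are given for the 8 largest rises, all falls and the transcription factors, and for some further members chosen after their values were seen. Background was the brightest Bacillus subtilis control on an array. The fit was checked on simulated data. Alternatives covered normalization, pseudocount, dim probe sets, variance model, the regularized test (re-implemented), replicate block, left-out arrays, the choice of probe sets and the fold threshold.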

Additional observations from a re-analysis of the deposited data

How the results depend on the processing

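The median changes were above 0 in all 17 alternatives. Those that alter only the variance model, the test, the replicate block or the fold threshold cannot move a median, so they do not bear on it. For the machinery the median of 0.40 became 0.34 with arrays scaled to the same 75th percentile and 0.35 with probe sets averaged, and for the lysosomal genes 0.24 became 0.33 with quantile normalization. Counts of calls depended more on the variance model. Without trend, 3 machinery genes were called higher, and 0 lysosomal genes higher and 0 lower, of 2669 probe sets called in all, against 5659 with trend. With a threshold of 1.5-fold, 6 machinery and 3 lysosomal genes were called higher, and the share of all genes at that threshold was not taken. With probe sets averaged, 1 lysosomal gene was called lower, Gusb. Leaving out single arrays gave 6 to 9 machinery genes higher. It gave 5 to 7 lysosomal genes higher and 1 to 2 lower (1 without proliferating replicate 2). The lowest counts of rises came without differentiated replicate 1 for both (6 and 5), and also without proliferating replicate 1 for the lysosomal genes (5). Over all genes, 1155 to 1411 were then called higher, against 1570 with all arrays, and 1283 to 1426 lower, against 1638. The lowest of these counts, 1155 and 1283, also came without differentiated replicate 1. Deviations of same-numbered arrays correlated at 0.012, 0.001 and 0.009, and those of other pairs at -0.015 to 0.005. Not every array correlated best with its own number. No clear pairing by replicate number was seen, but values this near 0 over all probe sets cannot exclude one. With the number as a block, 5287 probe sets were called and Becn1 and Ctsb were not. Scaling to the same 75th percentile ended the calls of Becn1 (0.28), Gabarapl1 (0.37), Ctsb (0.27) and Ctsl (0.36). No member changed sign where it was called. Dim genes such as Ctsh and Ctss cannot be read at this signal.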
